A study of Rattus norvegicus with 26 samples.

Results

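The miRNA repertoire of normal rat liver was read from 3 arrays, those titled normal 1, normal 2 and normal 3, out of 26 arrays in the series. Each array held total RNA from the right liver lobe of 1 male Sprague-Dawley rat that had lost no liver tissue. The protocol label of these 3 rats reads sham, whereas the treatment text and the methods describe rats without partial hepatectomy (PH), so whether the abdomen had been opened is not settled by the sources used here. The other 23 arrays held the right lobe of male rats at 6, 12, 24 or 36 hours after removal of about 1/3 or 2/3 of the liver (1/3PH and 2/3PH), in 8 groups of 3 rats, apart from 2 rats for 1/3PH at 6 hours, and they serve here as the operated livers. The array (Agilent rat miRNA, design V16.0, 1 colour) carried probes for 677 rat miRNAs, each scored as detected or not by the scanner software.

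miRNAs are short RNAs that guide Argonaute proteins to messenger RNAs and lower their translation or stability. Bases 2 to 8 of the mature strand, the seed, do most of the target recognition, so miRNAs with 1 seed form a family with overlapping targets. A hairpin precursor can yield a mature strand from either arm, and 1 strand (the guide) usually accumulates while the other (the passenger strand, marked * in array names) is degraded. In liver, hepatocytes are known for miR-122, a regulator of lipid and cholesterol metabolism, while endothelial, stellate, biliary and blood cells bring miRNAs of their own.

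Mature sequences were taken from RefSeq (rat assembly GRCr8), which matched 269 of the 677 array names, 100 of the 127 miRNAs detected on all 3 normal arrays and 29 of the 30 with the largest share of signal. miR-99a, miR-30b-5p, miR-30d, miR-200a, miR-200b and miR-320 were among the detected miRNAs without an entry. The members of the 10 families with the largest summed share are shown 5′ to 3′ with the seed in capitals, because these seeds carried most of the miRNA signal of the resting liver.

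miR-122: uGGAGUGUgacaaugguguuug
let-7a: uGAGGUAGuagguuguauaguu
let-7f: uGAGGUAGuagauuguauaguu
let-7b: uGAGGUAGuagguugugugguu
let-7c: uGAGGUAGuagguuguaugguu
let-7d: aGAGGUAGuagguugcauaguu
let-7i: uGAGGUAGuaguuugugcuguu
let-7e: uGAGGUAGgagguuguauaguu
miR-98: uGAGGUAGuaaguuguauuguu
miR-21: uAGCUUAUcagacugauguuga
miR-22: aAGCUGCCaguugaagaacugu
miR-29a: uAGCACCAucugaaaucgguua
miR-29c: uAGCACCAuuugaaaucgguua
miR-29b: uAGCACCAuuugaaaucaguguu
miR-16: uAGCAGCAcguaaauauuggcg
miR-195: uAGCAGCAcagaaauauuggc
miR-497: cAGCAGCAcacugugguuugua
miR-15b: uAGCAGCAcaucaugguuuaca
miR-322: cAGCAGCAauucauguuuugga
miR-192: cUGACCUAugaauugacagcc
miR-26a: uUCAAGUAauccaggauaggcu
miR-26b: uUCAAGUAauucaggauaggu
miR-23b: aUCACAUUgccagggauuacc
miR-23a: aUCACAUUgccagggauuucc
miR-126: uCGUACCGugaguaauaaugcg

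The first letters of these strands leaned to u. Of the 29 sequences among the 30 brightest miRNAs, 22 (75.9%) began with u, against 61 of 100 for all miRNAs detected on the 3 normal arrays, 5 of 24 (20.8%) for those detected on 1 or 2 arrays and 51 of 145 (35.2%) for those detected on none. Argonaute binds a 5′ u well, which is background and was not measured here. The median GC content of the 29 was 42.1%, against 47.6% for the detected miRNAs as a whole. These counts describe the matched names and carry no test.

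The arrays were similar in depth. The summed miRNA signal was 73615 on normal 1, 67216 on normal 2 and 95463 on normal 3, in arbitrary units of the scanner, with no saturated spot on any array. The software detected 140, 151 and 151 miRNAs, respectively. In all, 127 miRNAs were detected on all 3 normal arrays, 20 on 2, 21 on 1 and 509 on none. Of the 127, 82 were also detected on all 23 operated arrays, and 41 miRNAs were detected on an operated array but on no normal one. Across the 26 arrays 1 stood apart, replicate 2 at 12 hours after 1/3PH, with a summed signal of 18196 and 91 detected miRNAs. The 3 normal arrays lay on 3 slides scanned on 3 different days, so that rat, slide and scan day cannot be told apart among them.

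A single miRNA dominated normal liver. miR-122 gave 55.6%, 51.1% and 54.9% of the miRNA signal on the 3 arrays, or 53.9% ± 2.41 (SD, n = 3), and was more than everything else together on each of them. With another background correction (normexp) its share was lower, 45.8% with an offset of 0 and 24.0% with an offset of 50, so that it led without exceeding the rest together. The offset of 50 is added to every probe, which raises the array's total and by itself lowers the share of bright miRNAs. It exceeded the second miRNA, miR-21, 7.21-fold ± 2.06 (SD, n = 3). The 5 leading miRNAs held 71.5% of the signal, the leading 10 held 80.3% ± 0.622 (SD, n = 3), the leading 20 held 87.1% and the leading 30 held 91.0% ± 0.341 (SD, n = 3), where normexp with an offset of 50 gave 36.5% for the leading 10. On the separate arrays 27, 28 and 26 miRNAs sufficed for 90% of the signal. Only 9 miRNAs averaged above 1% and 56 above 0.1%. Signal is not a count of molecules, since probes differ in how well they bind, so ranks here are ranks of array signal and shares are shares of that signal.

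**Figure D1:**
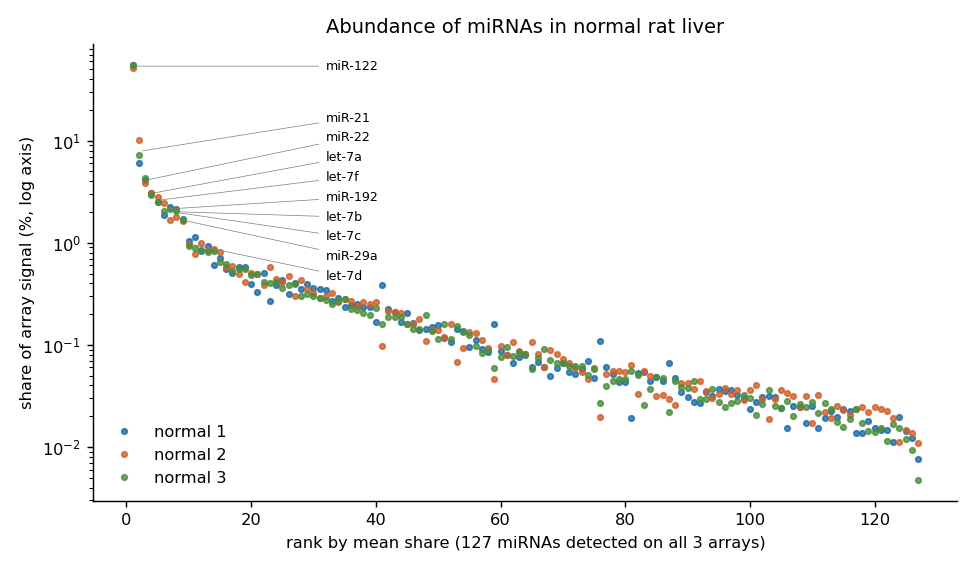
Share of the array's miRNA signal (percent, log axis) of each of the 127 miRNAs detected on all 3 normal arrays, ordered by mean share, with 1 point per array. miR-122 lies near 53.9%, miR-21 is the next at 7.86%, and single miRNAs such as miR-3588 (rank 41) have points that lie far apart.

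miR-21, a miRNA found in many tissues, held 6.09%, 10.2% and 7.32% of the signal on normal 1, 2 and 3, or 7.86% ± 2.09 (SD, n = 3). Its share was thus highest on normal 2, where that of miR-122 was lowest. miR-22, another broadly expressed miRNA, held 4.10%, 3.87% and 4.30%. These 3 miRNAs kept ranks 1, 2 and 3 on every normal array.

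Ranks 4 and 5 were also fixed and belonged to the let-7 family, whose members repress Lin28, Hmga2 and Ras genes and mark differentiated tissue. let-7a held 3.10%, 3.10% and 2.95% of the signal, and let-7f held 2.53%, 2.80% and 2.50%. miR-192, which is enriched in epithelia of liver, kidney and gut, held 1.85%, 2.48% and 2.06%, and so was highest on normal 2. let-7b showed the opposite order with 2.25%, 1.69% and 2.13%, and let-7c had 2.12%, 1.79% and 2.03%, both lowest on normal 2. miR-29a, a repressor of collagen and other matrix genes, was steady with 1.71%, 1.63% and 1.66% and ranked ninth on each array. let-7d followed with 1.04%, 0.965% and 0.924%.

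The 20 miRNAs of ranks 11 to 30 held between 0.930% and 0.329% of the signal each. Among them, miR-16 (0.930% ± 0.181), miR-195 (0.515% ± 0.0925), miR-497 (0.365% ± 0.0585) and miR-15b (0.329% ± 0.0322) belong to the family that represses cyclins D and E and Bcl2. miR-26a (0.892% ± 0.0833), miR-26b (0.543% ± 0.0445) and miR-101b (0.441% ± 0.0956) are repressors of the histone methyltransferase Ezh2. miR-126 (0.864% ± 0.0674) is the main endothelial miRNA. miR-19b (0.764% ± 0.140) and miR-92a (0.582% ± 0.0282) have hairpins in the miR-17-92 cluster on chromosome 15, which drives proliferation. Both also have a hairpin on chromosome X, and the array does not tell the sources apart. miR-23b (0.720% ± 0.0826), miR-27b (0.353% ± 0.0369), miR-24 (0.399% ± 0.0349) and miR-23a (0.362% ± 0.0699) come from paired clusters with roles in TGF-beta and lipid pathways. miR-29c (0.461% ± 0.0557) and miR-29b (0.417% ± 0.154) share the seed of miR-29a, and let-7i (0.436% ± 0.0607) that of let-7a. miR-194 (0.415% ± 0.0279) is the partner of miR-192, miR-99a (0.543% ± 0.0401) represses mTOR, and miR-122* (0.390% ± 0.0796) is the passenger strand of miR-122. Each SD is over the 3 normal arrays.

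Summed by seed, the order changed below miR-122. The 100 sequences of detected miRNAs held 72 different seeds, of which 14 were shared by 2 or more miRNAs. The let-7 family came second with 11.8%, 10.9% and 11.2% of the signal, or 11.3% ± 0.446 (SD, n = 3), ahead of miR-21, and 5.58% by normexp with an offset of 50 added to every probe. All 8 array names with the let-7 seed were detected on all 3 normal arrays. Their mature strands differ from each other at between 1 and 6 positions, and 4 of the 28 pairs at 1 position, so that the probe of 1 member may bind another, and the split of the family between members is less certain than its sum. The 2 dimmest were let-7e at 0.175% ± 0.0264 and miR-98 at 0.0485% ± 0.00617 (SD, n = 3).

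Behind miR-21 and miR-22 came 2 families with several bright members. The miR-29 family held 2.38%, 2.71% and 2.54% of the signal, or 2.54% ± 0.166 (SD, n = 3). The miR-15/16 family of 5 detected members, which includes miR-322 at 0.0812%, held 2.56%, 1.89% and 2.21%, or 2.22% ± 0.334 (SD, n = 3), and like let-7b was lowest on normal 2. miR-192 alone formed the family of rank 7, since the other array name with its seed was not detected on all 3 arrays. The miR-26 pair held 1.34%, 1.58% and 1.39%, the miR-23 pair held 1.06%, 1.24% and 0.940%, and miR-126, with 0.937%, 0.848% and 0.805%, closed the 10 families. The miR-30 family, whose sequences were matched in part, held 0.852% ± 0.109 (SD, n = 3) over 5 names.

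**Figure D2:**
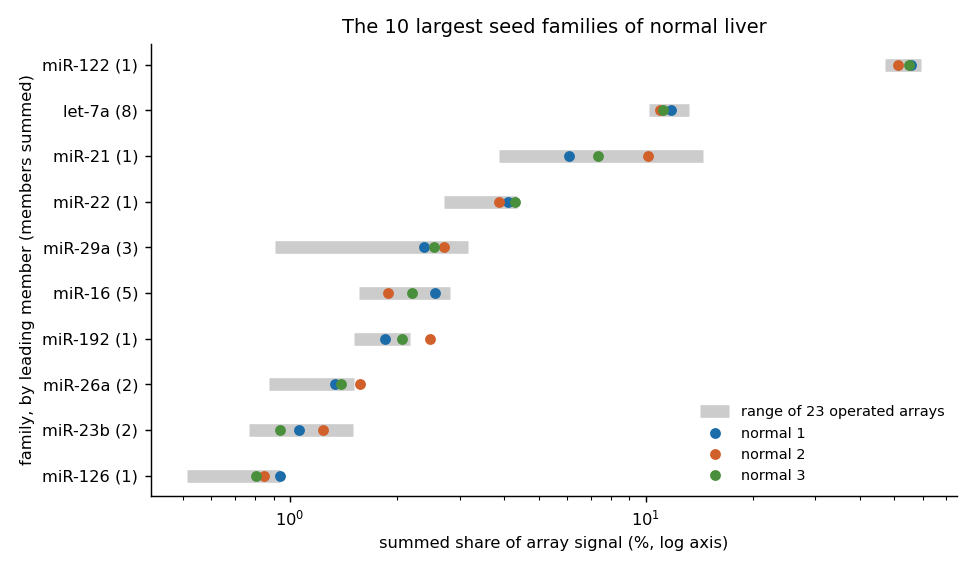
Summed share of array signal (percent, log axis) of the 10 largest seed families, named by their leading member with the number of detected members in brackets, with 1 point per normal array and a grey bar over the range of the 23 operated arrays. let-7 with 8 members stands second at 11.3%, and on normal 2 the points of miR-192 and of the miR-26 pair lie above the range of the operated arrays, as does that of miR-126 on normal 1 by a margin too small to see.

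The genome places many of the bright miRNAs together. In RefSeq GRCr8, 20 of the 29 located members of the 30 brightest lie within 10 kb of another of the 30, and 19 lie inside the span of another gene. let-7a, let-7f and let-7d form a run on chromosome 17, with the let-7a strand at chr17:16320145-16320166 and the let-7d strand at chr17:16322273-16322294, both on the plus strand inside the lncRNA LOC120097935. let-7b and let-7c lie together on chromosome 7, and miR-192 and miR-194 on chromosome 1. miR-29a is beside a copy of miR-29b on chromosome 4, and miR-29c beside the other copy on chromosome 13. miR-15b and miR-16 lie inside Smc4, a condensin gene, on chromosome 2. miR-26a and miR-26b sit in the sister phosphatase genes Ctdspl and Ctdsp1, and miR-126 in the endothelial gene Egfl7. The strand of miR-122 lies at chr18:61028831-61028852, plus strand, with none of the other leading hairpins near it. The shares of neighbours were close in some pairs, such as let-7b at 2.02% and let-7c at 1.98%, and apart in others, such as miR-192 at 2.13% and miR-194 at 0.415%, all of them values from different probes. Some of these miRNAs have a further hairpin elsewhere: let-7a on chromosome 8, let-7f on X, let-7c on 11 and miR-194 on 13. The array does not tell such sources apart, so their shares are not those of 1 locus.

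Where a hairpin had a detected arm, the other arm was mostly not detected, as were most names on the array. Of 259 pairs of arms named on the array, 91 had the brighter arm detected on all 3 normal arrays. In 70 of these the other arm was detected on none, and only 11 had both arms detected on all 3. Over the whole array, 509 of 677 names were detected on none and 127 on all 3. The 70 of 91 is thus near the share for any name. Names with a star made up 240 of the array's names, 11 of which were detected on all 3 normal arrays, and they held 1.38% ± 0.148 of the signal (SD, n = 3). Among the 11 pairs, the lesser arm was brightest for miR-122, whose passenger strand reads aACGCCAUcaucacacuaa, with its own seed in capitals.

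miR-122* gave a signal of 232, 318 and 365 on the 3 arrays, where miR-122 gave 40901, 34346 and 52432, so that the guide exceeded it 143-fold ± 34.3 (SD, n = 3). Even so, the passenger strand ranked 32, 22 and 26 among all miRNAs. In miR-30a and miR-378 the named guide exceeded its star strand 5.32-fold ± 0.969 and 5.37-fold ± 0.131 (SD, n = 3). In miR-652 the star strand was the brighter, 2.48-fold ± 0.744, and the 3p arm of miR-345 exceeded its 5p arm 1.79-fold ± 0.316 (SD, n = 3). Such ratios compare 2 sets of probes.

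A group of array names has mature strands that are complementary to a better known miRNA. Over the matched sequences, 16 pairs shared a perfectly complementary run of at least 17 bases. In 13 of them the brighter member was detected on all 3 normal arrays, and in 12 of these the complementary strand was detected on none. Which member was the brighter was read from these same arrays. Most array names, 509 of 677, were also detected on none. The pair of the brightest miRNA and the pair with both strands detected are shown with the seed in capitals.

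miR-122: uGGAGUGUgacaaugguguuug
miR-3591: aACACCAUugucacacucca
miR-125b-5p: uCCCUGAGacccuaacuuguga
miR-3588: uCACAAGUuagggucucaggga

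miR-3591, complementary to miR-122 over 20 bases, was not detected on any of the 26 arrays, although its partner gave the strongest signal of all. The strands complementary to let-7a, let-7f, let-7d, miR-29a, miR-29b and miR-29c were likewise not detected on any normal array. miR-3588 was the exception among the 13. It is complementary to all 22 bases of miR-125b-5p and was detected on every normal array, with signals of 282, 66.1 and 152 beside 196, 214 and 240 for miR-125b-5p. It was the brighter of the pair on normal 1 and the dimmer on normal 2 and normal 3.

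The cell type lists set the liver label beside other sources. Of 6 liver-enriched miRNAs, 5 were detected on all 3 normal arrays (miR-122, miR-192, miR-194, miR-101a and miR-101b), and the list held 58.2%, 54.6% and 58.0% of the signal, against 49.8% to 61.5% on the operated arrays. miR-33, which lies in the sterol regulator Srebf2, was detected on 2 of the 3. For comparison with the counts of each list, 127 of all 677 array names were detected on all 3 normal arrays and 509 on none. In tissue RNA, a low level of a marker because cells of its type are few cannot be told apart from a low level per cell.

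The endothelial list held 0.872% ± 0.0662, almost wholly miR-126, while miR-126* was detected on 2 arrays. Of 6 stellate and mesenchymal names, miR-143 (0.307%), miR-199a-3p (0.0869%), miR-214 (0.0322%) and miR-199a-5p (0.0179%) were detected on all 3 arrays, and miR-145 and miR-218 on none. The leukocyte list of 7 names held 0.343% ± 0.0562, with miR-146a (0.114%), miR-223 of myeloid cells (0.0954%), miR-142-3p of blood cells (0.0840%) and miR-150 of lymphocytes (0.0383%) detected on all 3. The other leukocyte names, miR-142-5p, miR-146b and miR-147, were detected on none. The red cell miRNA miR-451 held 0.143% and its neighbour miR-144 was not detected. The biliary epithelial list held 0.0838% ± 0.0304, with miR-200a and miR-200b detected on all 3 arrays, miR-429 on 2 and miR-200c, miR-141 and miR-203 on none.

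miRNAs of other organs were at or near 0. None of 6 muscle and none of 3 pancreas names was detected on a normal array. Of all 677 array names, 509 were likewise detected on none and 127 on all 3. Counts from lists this short therefore say little about the organ. Of 5 neural names, miR-338 alone was detected, at 0.0289% of the signal. From the imprinted Dlk1-Dio3 cluster, which is active in fetal tissue and silent in most adult organs, 2 of 34 names were detected, miR-494 at 0.0577% and miR-409-3p at 0.0414%. Of the 8 names of the embryonic miR-290 cluster, miR-290 alone was detected, at 0.0576%. For the lists as a whole, the normal arrays lay within the range of the operated arrays, except that the neural list, at 0.0387% on normal 2, exceeded their highest value of 0.0382%, the pancreas list, at 0.00467% on the same array, exceeded their highest value of 0.00359%, and the biliary list, at 0.0511% on normal 3, fell short of their lowest value of 0.0626%.

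The 3 livers resembled one another more closely for bright than for dim miRNAs. For these comparisons, the signal was divided by each array's 75th percentile over 109 probes that were well above background on all arrays, and log2 was taken. Over the 127 miRNAs, the Pearson correlation of log2 signal across miRNAs, which are not independent and share the same arrays, was 0.968 between normal 1 and 2, 0.981 between normal 1 and 3, and 0.984 between normal 2 and 3. The median SD between the 3 arrays was 0.21 on the log2 scale, with 0.18 for the 30 brightest and 0.23 for the others. The same median ran from 0.14 to 0.30 in the 8 operated groups. The repeated spots of a miRNA on 1 array gave a median standard error of 3.17%, 3.04% and 3.29% of the signal on the 3 arrays.

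Of the 127 miRNAs, 37 differed by less than 1.2-fold between the highest and the lowest array and 9 by more than 2-fold. Among the 30 brightest, the widest ratio was 1.92-fold, for miR-29b. The 5 least variable miRNAs were miR-31, miR-194, miR-140, miR-26b and let-7f, with ratios from 1.02-fold to 1.05-fold. miR-194, for example, had log2 scaled signals of 0.33, 0.37 and 0.37.

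The 5 most variable were miR-466b, miR-3588, miR-500, miR-19a and miR-139-3p. miR-466b gave signals of 80.3, 13.3 and 25.8 and varied 6.16-fold after scaling, miR-3588 varied 4.35-fold, and miR-500 gave 117, 31.3 and 56.5 and varied 3.81-fold. In all 3, normal 1 was the highest and normal 2 the lowest. miR-139-3p, with signals of 49.4, 19.6 and 21.0, was also highest on normal 1, while miR-19a, with 14.1, 42.7 and 53.5, was lowest there.

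These miRNAs also varied on the operated arrays. miR-466b had log2 scaled values from -4.94 to -1.07 there, against -1.50, -4.12 and -3.57 on the normal arrays, and miR-500 had -3.77 to -1.02, against -0.96, -2.88 and -2.43. The high value of miR-466b on normal 1 lay below the operated maximum, whereas that of miR-500 lay just above it. On scan days 1, 2 and 3 the operated medians of miR-3588 were -0.76, -1.77 and -2.10, beside normal values of 0.31, -1.01 and -1.81. Those of miR-500 were -2.26, -2.99 and -3.21, beside -0.96, -2.43 and -2.88. Both thus kept the order of the normal arrays, whereas miR-466b, miR-19a and miR-139-3p did not. The days held different operated groups, and the part of scan day was not tested.

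**Figure D3:**
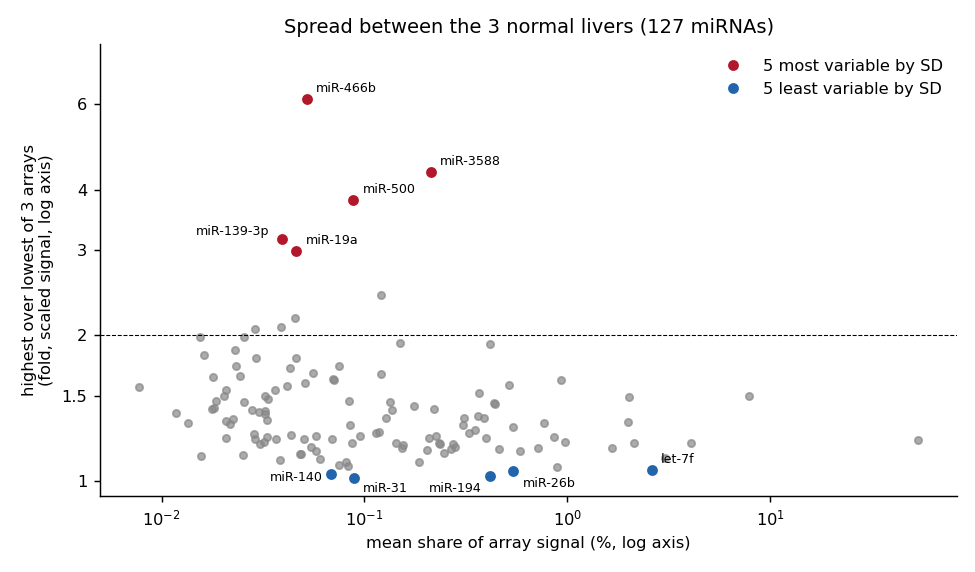
Ratio of the highest to the lowest of the 3 normal arrays after scaling (fold, log axis) against mean share of signal (percent, log axis) for 127 miRNAs, with the 5 most and the 5 least variable by SD in colour and a dashed line at 2-fold. The 9 points above the line all have shares of 0.214% or less.

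Base composition moved with the differences between arrays. Over 100 detected miRNAs with a sequence, the log2 difference of normal 1 from the mean of the other 2 arrays correlated with GC content (Pearson r = 0.402), and that of normal 2 correlated the other way (r = -0.434), while normal 3 showed r = 0.0363. The 38 miRNAs with at least 50% GC had a median difference of 0.18 on normal 1 and -0.10 on normal 2, and the 33 with at most 42.9% GC had -0.04 and 0.12. These correlations are descriptions over miRNAs that share the arrays, and the part of base composition in the spread was not tested.

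Set against all operated livers pooled, 4 summaries of the repertoire did not differ beyond the spread between arrays. Pooling can cancel opposite changes in single groups and adds their differences to the spread. The miR-122 share was 57.6% ± 1.65 at 12 hours and 50.7% ± 3.18 at 24 hours after 2/3PH, against 53.9% ± 2.41 in normal liver (SD, n = 3 each). The leading 10 of each array held 80.5%, 79.6% and 80.8% of the signal in normal liver, against a mean of 80.6% ± 0.947 (SD, n = 23) after operation, a difference of -0.278 percentage points (exact permutation test over arrays, two-sided, p = 0.588, adjusted p = 0.754 over 4 summaries). The miR-122 share differed by -0.541 points (exact p = 0.754, adjusted p = 0.754) and the let-7 share by -0.317 points (exact p = 0.471, adjusted p = 0.754). Normal arrays had 147 ± 6.35 detected miRNAs (SD, n = 3) and operated arrays 135 ± 12.7 (SD, n = 23), a difference of 12.8 (exact p = 0.112, adjusted p = 0.448).

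Within the 3 scan days, normal minus operated was 0.839, 3.88 and -3.63 points for miR-122, -0.156, 0.454 and -0.911 points for the leading 10, 0.0932, -0.0142 and -0.566 points for let-7 and 5.69, 3.50 and 20.8 for the number of detected miRNAs, from 1 normal array against 16, 2 and 5 operated arrays. The signs of the first 3 thus differed between days, while the number of detected miRNAs was higher in normal liver on each. The third day includes the dim array at 12 hours after 1/3PH, with 91 detected miRNAs. Without that array the difference in detected miRNAs over all days was 10.8 instead of 12.8. In every operated group 9 or 10 of the 10 leading miRNAs of normal liver were again among the leading 10, and 27 to 29 of its 30 among the leading 30.

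**Figure D4:**
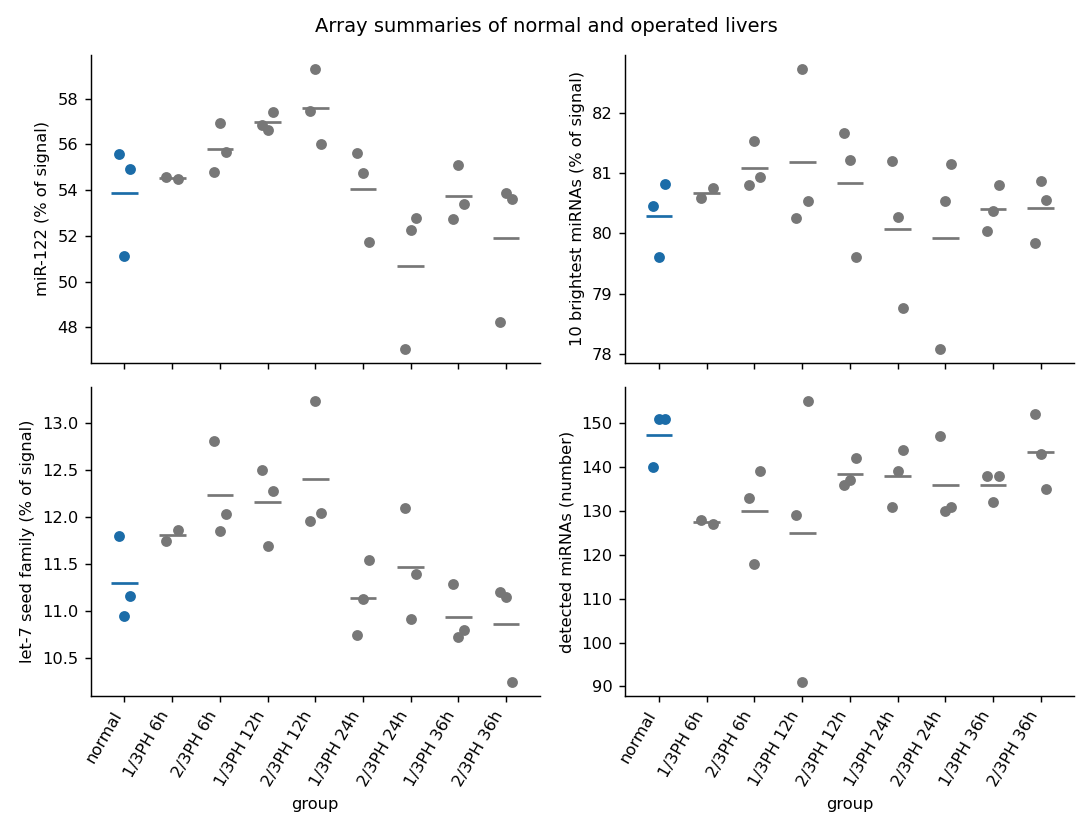
Share of miR-122, of the 10 brightest miRNAs and of the let-7 seed family (percent of array signal) and number of detected miRNAs on each of the 26 arrays by group, normal liver in blue, operated groups in grey, bars at group means; the vertical axes do not start at 0. The normal arrays lie within the range of the operated arrays in each panel, and the array at 91 detected miRNAs is the dim one at 12 hours after 1/3PH.

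Single miRNAs were compared by limma between normal liver and the equally weighted mean of the 8 operated groups, for 144 miRNAs that had been detected throughout 1 or more of the groups. Of these, 1 (0.694% of those tested) passed an adjusted p of 0.05, and 27 had an unadjusted p under 0.05, 17 of them higher and 10 lower in normal liver. None of the 30 brightest was called. Their differences ran from -0.41 to 0.44 on the log2 scale, 15 of 30 were above 0, and the smallest adjusted p was 0.0717. A mean over the groups can hide opposite changes within them. The share of miR-21 was 5.59% ± 1.52 at 12 hours and 11.8% ± 0.670 at 24 hours after 2/3PH, against 7.86% ± 2.09 in normal liver (SD, n = 3 each). Over all 144 the median difference was -0.08. None of the tested members of the cell type lists was called either, with median differences of 0.19 over 5 liver-enriched, -0.73 over 3 biliary, -0.24 over 4 stellate and 0.21 over 4 leukocyte names.

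The called miRNA was miR-34a, a target of p53 that represses cell cycle genes and has the sequence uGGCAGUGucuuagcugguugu with the seed GGCAGUG. It ranked 66 in normal liver, with signals of 50.4, 55.2 and 71.5 and log2 scaled values of -2.17, -2.07 and -2.09. On the 23 operated arrays these values ran from -2.15 to -0.03, and 21 of the 23 lay above the highest normal array. The 2 that did not were both taken at 6 hours after 2/3PH. The difference of normal from operated liver was -0.78 (SE 0.162, limma adjusted p = 0.0158).

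miR-34a was also lower in normal liver within each scan day. On the first, normal 1 lay below all 16 operated arrays by -0.80 from their mean, on the second normal 3 lay below both by -1.78, and on the third normal 2 lay below 4 of 5 by -0.57. The days held different operated groups: both arrays of the second day were taken at 36 hours after 2/3PH, the group with the highest mean of -0.26, while 2/3PH at 6 hours had a mean of -2.01, so these differences are not like for like. The call was weaker in other settings: with scan day as a fixed block the adjusted p was 0.105, without normal 2 it was 0.107 and without normal 3 it was 0.127, all by limma. By limma the adjusted p was 0.882 without scaling, 0.638 with normexp (offset 50) and 0.150 with the deposited log2 table. Over 37 alternatives, 23 of which left out 1 operated array each, the difference ran from -0.82 to -0.53. The adjusted p by limma ran from 0.00319 to 0.958, the highest with the 75th percentile over all probes.

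**Figure D5:**
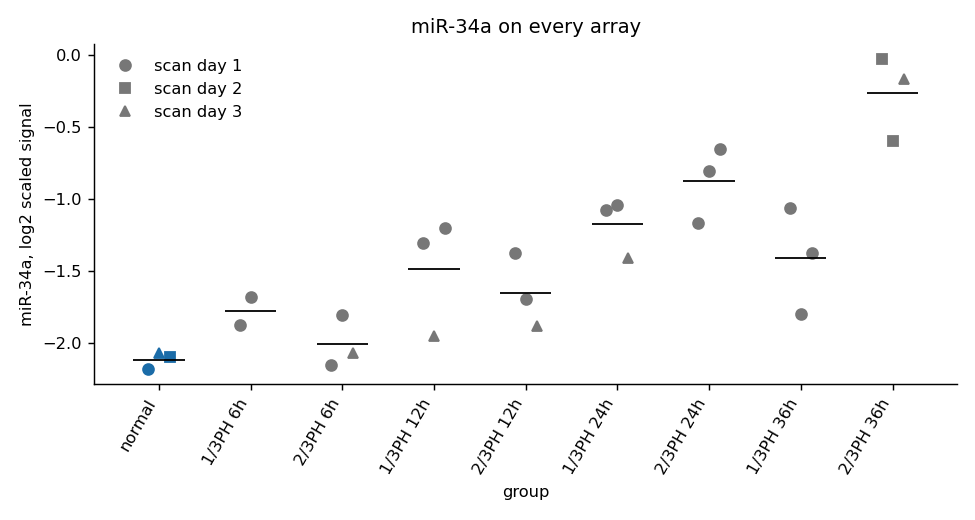
Log2 scaled signal of miR-34a on each of the 26 arrays by group, with 1 point per array shaped by scan day, normal liver in blue and a line at each group mean. The 3 normal arrays lie between -2.17 and -2.07, and 21 of 23 operated arrays lie above them.

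The detection call differed between normal and operated arrays for a few dim miRNAs. Of the miRNAs detected on all 3 normal arrays, 5 were detected on under 50% of the 23 operated arrays: miR-338 on 6, miR-96 on 11, miR-128 on 9, miR-331 on 3 and miR-455* on 5. On the log2 scale, normal minus operated was 0.55 for miR-338, 0.01 for miR-96, -0.34 for miR-128, -0.37 for miR-331 and -0.49 for miR-455*. None of these passed the test by limma. The operated median was -4.22 for each of miR-128, miR-331 and miR-455*, a value to which weaker signals had been set. Their differences therefore do not measure signal. As shares, where weaker signals were kept, miR-96 held 0.0208% in normal liver against an operated median of 0.0173%. miR-128 held 0.0136% against 0.0104%, and miR-331 held 0.0117% against 0.00863%. All 5 were dim, with normal signals between 4.52 and 25.0, and miR-96 belongs to a cluster known from sensory organs and miR-128 to those rich in brain. No miRNA was detected on no normal array and on over 50% of the operated ones. miRNAs this dim lie near the detection limit of the software, and the operated arrays detected fewer miRNAs on average.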

How the data were processed

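Total liver RNA was labelled with Cy3 and hybridized to 26 single-colour arrays, 1 for each rat. The authors deposited the scanner software's intensity values of every spot (Feature Extraction 10.7.3.1, background subtracted, without scaling of arrays to each other). The authors also deposited log2 values that they had normalized between arrays by a method not named in the sources used here. That log2 table served as an alternative only.

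Intensities were averaged over the spots of a probe that the software had not marked as outliers, and the probes of each miRNA were added up (677 miRNAs, 1644 probes). A share is this signal over the array's total, with negative sums set to 0. Detection was the software's own call, and SDs are over arrays. For log2 values, signals were divided by the array's 75th percentile of 109 probes well above background on all arrays, with signals below the lowest probe well above background set to that value. The number of arrays limits the precision.

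Normal liver was compared with the operated groups by limma 3.58.1 (R 4.3.3; 1 fit of 9 groups, 17 residual degrees of freedom, prior degrees of freedom 2.34, prior SD 0.231) with Benjamini-Hochberg adjustment over 144 miRNAs, and 4 array summaries by exact permutation (2600 ways, two-sided). Python 3.11.15, numpy 2.4.6 and pandas 2.3.3 did the rest. The fit was tested on simulated data. Replicates are separate rats.

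Named miRNAs are the 30 with the largest mean share among those detected on all 3 normal arrays, the 10 largest seed families, the 5 most and 5 least variable, up to 5 called each way by limma, those whose detection differed between normal and operated arrays, detected members of the cell type lists, and the 5 arm pairs with the brightest lesser arm. The complementary strands, the miR-30 family and the comparison with GC content were added after their values were seen. The miRNAs and lists were chosen with earlier results of these data known. Array names without an arm were matched to the RefSeq arm by the strand that the old name is known to denote. Coordinates are those of GRCr8, not of the array design.

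Alternatives were the total gene signal given by the software, the brightest or the mean probe, totals over detected miRNAs, normexp background correction (offset 50, and offset 0 added after seeing the data), the deposited log2 table, detection by probes or on 2 of 3 arrays, other scalings and detection filters, slide or scan day as a block, eBayes with trend, and leaving out each array in turn.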

Additional observations from a re-analysis of the deposited data

How the results depend on the processing

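Among these alternatives the shares moved most with the background correction and its offset. Against 80.3% for the leading 10, 53.9% for miR-122 and 11.3% for let-7, normexp with an offset of 50, which adds 50 to every probe, gave 36.5%, 24.0% and 5.58%, and with an offset of 0, chosen after seeing the data, 68.6%, 45.8% and 9.79%. The leading 10 held 79.6% by the software's total gene signal and 81.3% by the deposited log2 table, and let-7 held 12.0% by the brightest probe. Without each normal array in turn the 3 shares ran from 80.0% to 80.6%, 53.0% to 55.2% and 11.1% to 11.5%. Of 90 values for the shares of ranks 2 to 10 under these alternatives, 21 moved by more than 1 SD. The 127 miRNAs detected on all 3 normal arrays became 107 when a probe well above background was required and 147 with 2 of 3 arrays. The median SD of 0.21 was 0.28 without scaling and 0.16 to 0.19 without 1 normal array. The limma call of 1 miRNA became 0 without scaling, with the 75th percentile over all probes, with normexp (offset 50), with the deposited log2 table and with scan day as a fixed block (6, 2, 4, 17 and 28 at an unadjusted p under 0.05), 6 with quantile normalization (3 of them higher in normal liver), 2 with detection required on every array and 2 with trend in eBayes, and 0 to 8 without 1 array, with 8 without normal 1 (4 higher), 0 without normal 2 and 0 without normal 3 (21 and 12 at an unadjusted p under 0.05), 3 without the dim array or replicate 1 at 12 hours after 2/3PH (1 higher in each), and 2 without each of replicate 1 and 2 at 24 hours after 2/3PH and replicate 3 at 36 hours after 1/3PH. The cause was not tested. The median difference of all tested miRNAs was -0.08, 0.10 without scaling, 0.10 with the 75th percentile over all probes, 0.11 with the deposited table and -0.25 with normexp background correction (offset 50). miR-34a was lower in normal liver under all 37 alternatives and past the threshold in 30. Of the 37, 23 only left out 1 operated array each, and all of these kept the call. It was lost without scaling, with the 75th percentile over all probes, with normexp (offset 50) and with the deposited table. With scan day as a fixed block, and without normal 2 or normal 3, it was lost as well. The 4 array summaries stayed short of the threshold under every alternative run, and restriction to scan days with a normal array left out no array. No paired analysis was possible because each array held the liver of a separate rat. Dim signal limits detection near background.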
